A study of Homo sapiens with 8 samples.

Results

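LP-1, a human multiple myeloma cell line, was treated for 6 hr with 2.5 μM SGC-CBP30, an inhibitor of the bromodomains of CBP and EP300, and RNA sequencing was compared with DMSO libraries of the same naming series. The comparison rests on 4 of the 8 libraries of the study, 2 biological replicates with SGC-CBP30 and 2 with DMSO. The other 4 libraries hold the same cells after 0.25 μM CPI203, a BET bromodomain inhibitor, for the same time, and a separate DMSO pair. All 8 come from 1 cell line grown in culture, so the libraries of a group do not stand for different patients. Of the 63102 genes with complete values, 31193 were above 0 in some of the 4 libraries and 14642 had a mean of at least 1 RPKM (reads divided by gene length in kilobases and by library size) over them. These 14642 genes were compared, and the 16551 genes with lower means were not. The mean is taken over treated and control libraries, so a gene under 1 RPKM in 1 group could enter through the other alone. The gene nearest the limit on the inside, TDRD7, had a mean of 1.0003 RPKM, and the nearest outside, C4orf47, had 0.99962 RPKM.

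CBP, encoded by CREBBP, and EP300 are closely related coactivators that are brought to enhancers and promoters by transcription factors and acetylate histones and other proteins there. Their bromodomain is a pocket that binds acetylated lysine and helps to hold the protein on chromatin. In plasma cells, the antibody-secreting cells from which myeloma arises, enhancers of lineage genes such as IRF4 carry much acetylation. CREBBP itself was at 21.8 and 19.8 RPKM in DMSO and at 21.3 and 21.9 RPKM with SGC-CBP30. EP300 was at 14 and 12.2 RPKM in DMSO and at 15.6 and 16.7 RPKM with the compound. The CREBBP libraries overlapped, with a log2 fold change of 0.06 (adjusted p = 0.616), which turned negative after median scaling, while EP300 differed by 0.30 on the log2 scale (adjusted p = 0.014). The adjusted p of EP300 was 0.107 without DMSO replicate 2, 0.103 without SGC-CBP30 replicate 2, 0.0695 with no filter on low values and 0.0519 after quantile normalization. The reference gene GAPDH was between 648 and 681 RPKM in all 4 libraries.

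The plasma cell identity of the libraries was checked with marker genes. All 8 plasma cell markers had a mean of at least 1 RPKM, led by XBP1 at 212 RPKM. Among markers of B, T, NK, myeloid, erythroid and stromal cells, PAX5, CD3D, KLRD1, GNLY, HBA2, DCN and COL3A1 were at 0 in all 4 libraries, and the highest was CD68 at 1.69 RPKM. The summed level of the plasma cell markers was between 803 and 828 RPKM in DMSO and between 512 and 533 RPKM with SGC-CBP30, and no other cell type's list passed 2.70 RPKM in any library. IRF4, XBP1 and POU2AF1 were lower with the compound, whereas SDC1 was at 43.9 and 47.2 RPKM in DMSO and at 53.1 and 47.4 RPKM with SGC-CBP30 and CD38 was between 25.7 and 29.6 RPKM throughout. Estimated depth was 34100000 and 34400000 reads for DMSO and 46800000 and 50100000 reads for SGC-CBP30, so the treated libraries were the deeper ones. Over 8237 genes averaging 10 RPKM or more, the log2 difference had an SD of 0.086 and 0.097 between replicates and of 0.274 to 0.299 between treated and control libraries.

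The rule for a call was an adjusted p under 0.05 from limma together with a change of at least 1.5-fold, on the scale of log2(RPKM + 0.1), which understates the change of genes near the lower limit. In this way 564 genes were called lower with SGC-CBP30 (3.85% of those tested) and 482 higher (3.29%). Together these are 7.14% of the genes tested, the share to set beside the counts of each list. Without the minimum fold change, 2178 genes (14.9%) were lower and 3743 (25.6%) higher, so small increases outnumbered small decreases. The large changes ran the other way. At 2-fold or more 197 genes were called lower and 72 higher, and at 4-fold or more 22 lower and 6 higher. Across all genes tested, the median log2 fold change was 0.07 and the middle of the distribution ran from -0.11 to 0.24. The share of calls that were higher was 46.1% with RPKM as deposited, 30.7% after median scaling of the libraries, 33.9% after quantile normalization, 34.3% with a pseudocount of 1 and 33.6% where the mean reached 5 RPKM.

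Genes called lower were expressed at a higher level than those called higher. Their median in DMSO was 9.69 RPKM, against 2.21 RPKM for the genes called higher and 12.4 RPKM for all genes tested. Among the 2428 genes that averaged 50 RPKM or more, 63 were called lower and 3 higher, and among the 1681 genes between 1 and 2 RPKM, 87 were called lower and 156 higher. Genes under 5 RPKM made up 317 of the 482 calls of higher expression and 232 of the 564 of lower expression. The summed level of the genes called lower went from 15690 to 8499 RPKM, and that of the genes called higher from 2260 to 3926 RPKM. The treated libraries also had more genes above 0, 27341 and 27628 against 26326 and 26527 in DMSO, and the part of depth in the low-level calls was not tested. For 1 gene and groups of 2, the smallest two-sided p of an exact permutation test is 0.333, so every p-value comes from limma's model.

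**Figure D1:**
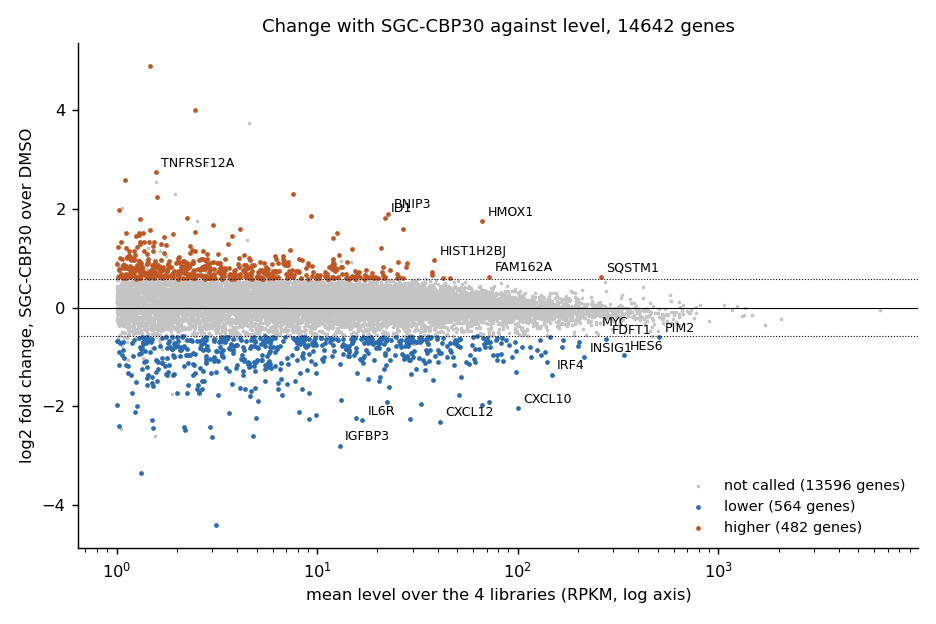
Each point is 1 of the 14642 genes, with its mean level over the 4 libraries in RPKM on a log axis and its log2 fold change with SGC-CBP30 over DMSO. Dotted lines mark 1.5-fold; the 564 genes called lower reach high levels such as IRF4, HES6 and PIM2, whereas most of the 482 genes called higher lie under 5 RPKM.

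Regulators of the B lineage and of plasma cells were lower as a group. Of 19 such genes tested, 6 were called lower and 1 higher, and 15 were lower at an adjusted p under 0.05, where the median log2 fold change was -0.44 beside 0.07 for all genes. The zinc finger factor KLF2 (chr19:16435628-16438685, hg19), a regulator of lymphocyte quiescence and migration, was at 15.9 and 16.7 RPKM in DMSO and at 3.53 and 3.47 RPKM with SGC-CBP30. Both treated libraries thus held less than either control, and the log2 fold change was -2.19 (standard error, SE, 0.095, adjusted p = 5e-07). IRF4 (chr6:391739-411447, hg19), the interferon regulatory factor on which myeloma cells depend, was at 215 and 211 RPKM in DMSO and at 86.2 and 79.5 RPKM with SGC-CBP30. That is a log2 fold change of -1.36 (SE 0.039), and the call held with each library left out, between -1.42 and -1.31.

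Other members of this group fell by smaller amounts. POU2AF1, the B cell coactivator of octamer factors, went from 81.9 and 86.2 RPKM to 40.6 and 37.7 RPKM, a log2 fold change of -1.10. MAF, a leucine zipper factor that drives a subset of myelomas, went from 42.9 and 43.6 RPKM to 22.1 and 20.3 RPKM (-1.03). IKZF1, which encodes the lymphoid factor Ikaros, had a log2 fold change of -0.78, and PRDM1, the repressor that sets up the plasma cell program, one of -0.64. XBP1, the factor of the secretory response, was lower by 0.43 on the log2 scale, under the 1.5-fold limit. The exception was ID3, an inhibitor of E proteins, which rose from 6.27 and 6.78 RPKM to 17.4 and 17.8 RPKM (1.42). In the other DMSO pair ID3 was at 16.7 and 16.2 RPKM, near its level with the compound. With all 4 DMSO libraries as controls, the log2 fold change of ID3 was 0.76. Its relative ID1 is described with the TGF-beta genes. In all 6 genes called lower, both treated libraries were also below both DMSO libraries of the CPI203 experiment. The same held for 426 of all 564 genes called lower.

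The start of MAF holds a full CREB element, the site of the factor after which CBP is named, and is shown for that reason, chosen after its value was seen. The stretch lies before the annotated start in the RefSeq promoter table (chr16:79600750-79600807, GRCh38.p14, minus strand), with the 8 letters TGACGTCA in capitals.
MAF: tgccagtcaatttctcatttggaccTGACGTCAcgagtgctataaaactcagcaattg
This element, which reads the same on both strands, stands in 1.85% of the 35116 promoter windows of the table. It also stands before the starts of SKIL, which was called higher with SGC-CBP30, and MAFF, which was called lower. A match describes these letters and does not show that a factor binds there.

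Receptors and signalling genes of the B cell surface also had more decreases. Of 16 genes tested, 5 were called lower and none higher, with a median of -0.39, and no member was higher at an unadjusted p under 0.05 in limma. CD48, an adhesion ligand of the SLAM family, was at 54.4 and 57.0 RPKM in DMSO and at 20.4 and 19.5 RPKM with SGC-CBP30 (-1.48). TNFRSF13B, a receptor for the plasma cell survival factors BAFF and APRIL, went from 144 and 150 RPKM to 89.1 and 79.9 RPKM (-0.80), and CD28, a costimulatory receptor, from 10.2 and 9.69 RPKM to 5.37 and 4.74 RPKM (-0.97). The groups did not overlap in these genes or in any other of the 1046 called, which the rule for a call largely brings about. The tyrosine kinase ZAP70 and the phosphatase PTPN6 were called as well, with log2 fold changes of -2.29 and -1.23, but both calls were lost when all 4 DMSO libraries served as controls, since ZAP70 was at 0.112 RPKM and PTPN6 at 1.52 RPKM in the other DMSO pair.

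Genes of lymphocyte trafficking and adhesion gave 6 calls of lower expression and none of higher among 16 tested, with a median of -0.37 and 1 member higher at an unadjusted p under 0.05. The chemokine receptor CCR1 (chr3:46243200-46249887, hg19) was at 47.5 and 48.3 RPKM in DMSO and at 10.4 and 9.47 RPKM with the compound, a log2 fold change of -2.26 (SE 0.091, adjusted p = 3.51e-07). S1PR1, the receptor for sphingosine 1-phosphate that guides exit from lymphoid tissue, went from 2.10 and 2.05 RPKM to 0.448 and 0.442 RPKM (-1.99). The integrin chain ITGAL and the selectin ligand SELPLG fell by 1.37 and 1.17 on the log2 scale, and CD44, the hyaluronan receptor, by 1.09. ICAM1 was called at -0.63 and lost the call without DMSO replicate 2 and with all 4 DMSO libraries as controls, where the change was under 1.5-fold. ITGB7, the most abundant adhesion gene of the list, was at 539 and 577 RPKM in DMSO and at 388 and 361 RPKM with SGC-CBP30, which did not reach 1.5-fold (-0.57). CXCR4, the main marrow homing receptor, was between 34.1 and 39.7 RPKM throughout (-0.17, adjusted p = 0.017).

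The chemokines that such receptors bind moved in both directions. CXCL12 (chr10:44793038-44881941, hg19), the ligand of CXCR4, was at 67.3 and 69.4 RPKM in DMSO and at 14.2 and 13.2 RPKM with SGC-CBP30, a log2 fold change of -2.31 (SE 0.060). CXCL10, an interferon-induced chemokine, went from 163 and 161 RPKM to 40.6 and 38.0 RPKM (-2.04), 1 of the 6 largest falls in RPKM. CCL3, an inflammatory chemokine made by myeloma cells, was at 5.98 and 7.04 RPKM in DMSO and rose to 19.5 and 17.7 RPKM (1.5). In each of these genes the spread between replicates was small beside the change.

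**Figure D2:**
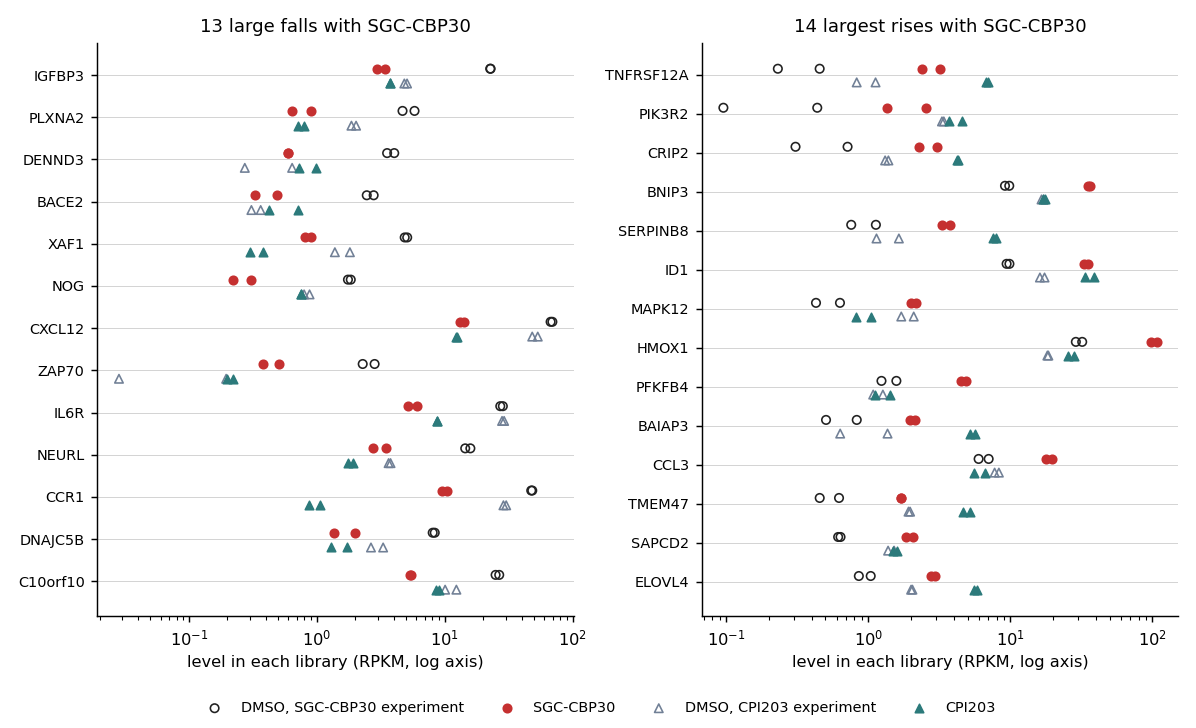
RPKM in every library, on a log axis, for 13 of the protein-coding genes with the largest falls (left) and the 14 with the largest rises (right) with SGC-CBP30; circles are the SGC-CBP30 experiment and triangles the CPI203 experiment, open for DMSO and filled for compound. The genes were chosen for the size of their change and for having no overlap between treated and control circles. For 11 of the falls and 9 of the rises the open triangles lie at least 1.5-fold from the open circles, on the side of the treated libraries. The open circles also entered the choice of genes, so such counts are built in to some degree. Genes under 1 RPKM in 1 kind of circle passed the limit of 1 RPKM through the other.

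The pairs of DMSO libraries differed for many of these genes. Of the 564 genes called lower, 221 were at least 1.5-fold lower in the DMSO pair of the CPI203 experiment than in those of the SGC-CBP30 experiment, against 4.73% of all genes tested, and of the 482 genes called higher, 114 were at least 1.5-fold higher there, against 3.56%. For 426 of the genes called lower both SGC-CBP30 libraries were nevertheless below both DMSO libraries of the CPI203 experiment, and for 383 of those called higher they were above both. With all 4 DMSO libraries as controls, 509 genes were called lower and 422 higher. The labels give no reason for the difference between the pairs, and its part in these calls was not tested. The calls were made with the same DMSO libraries of the SGC-CBP30 experiment that enter this comparison. Some excess over the shares of all genes is therefore built in.

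Genes of semaphorin, plexin and Notch signalling, which act in cell guidance and cell fate, had a median of -0.67, which was -0.15 over the 11 members with at least 5 RPKM and -0.43 with a pseudocount of 1. Among 17 tested, 9 were called lower and 1 higher. PLXNA2 (chr1:208195587-208417665, hg19), a semaphorin receptor, was at 5.80 and 4.68 RPKM in DMSO and at 0.905 and 0.641 RPKM with SGC-CBP30, a log2 fold change of -2.62 (SE 0.196, adjusted p = 1.45e-05). The Notch target HEY1 went from 2.98 and 3.90 RPKM to 1.00 and 1.17 RPKM (-1.57), and the ligand SEMA4B from 23.0 and 23.6 RPKM to 10.9 and 10.5 RPKM (-1.12). HES6, a Notch-related repressor and the gene with the largest fall in RPKM of all those called, was at 447 and 452 RPKM in DMSO and at 244 and 218 RPKM with the compound (-0.96). Its call was lost with all 4 DMSO libraries as controls, under which 6 members of the list were called lower. PLXNA3 moved the other way, from 4.54 and 4.70 RPKM to 8.73 and 9.27 RPKM (0.95).

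Among growth factor genes, IGFBP3 (chr7:45951949-45961473, hg19), which binds insulin-like growth factors outside the cell, had the largest fall of any protein-coding gene. Its level was 22.7 and 22.8 RPKM in DMSO and 3.39 and 2.97 RPKM with SGC-CBP30, a log2 fold change of -2.80 (SE 0.088, adjusted p = 1.25e-07). The related IGFBP7 went from 14.3 and 13.7 RPKM to 4.07 and 4.22 RPKM (-1.73). Both were lower in the other DMSO pair, with means of 4.95 and 5.55 RPKM, which still lay above the SGC-CBP30 libraries. Of the 25 genes of the TGF-beta, SMAD and IGF pathway tested, 5 were called lower and 3 higher, with a median of 0.01 that was negative after median scaling and after quantile normalization. SMAD3, a transducer of TGF-beta that recruits CBP and EP300, had a log2 fold change of -0.87, and the inhibitory SMAD7 one of -0.68. SKIL, a SMAD repressor, was at 7.99 and 8.08 RPKM in DMSO and at 15.8 and 16.4 RPKM with the compound (0.99), but at 15.7 and 15.1 RPKM in the other DMSO pair. With all 4 DMSO libraries as controls SKIL, SMAD3 and SMAD7 lost their calls, and 4 genes of the list were called lower and 1 higher. ID1, a target of BMP signalling, rose from 9.85 and 9.41 RPKM to 35.4 and 33.1 RPKM (1.82). NOG, which encodes the BMP antagonist noggin, went from 1.84 and 1.75 RPKM to 0.221 and 0.305 RPKM (-2.39). In the other DMSO pair ID1 was at 17.4 and 16.1 RPKM and NOG at 0.877 and 0.795 RPKM. Both lay between their own DMSO and SGC-CBP30 libraries there.

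Interleukin-6, a growth factor of myeloma cells, signals through a receptor of a binding and a signalling chain. Both chains fell. The binding chain IL6R (chr1:154377669-154441926, hg19) was at 28.5 and 27.2 RPKM in DMSO and at 6.09 and 5.19 RPKM with SGC-CBP30, a log2 fold change of -2.29 (SE 0.077), and the other DMSO pair was at the same level as its own, with a mean of 28.6 RPKM. The signalling chain IL6ST, also called gp130, went from 118 and 110 RPKM to 29.8 and 30.5 RPKM (-1.92). Further along the chain JAK1 was between 17.9 and 20.5 RPKM in all 4 libraries (-0.13, adjusted p = 0.094) and STAT3 was higher by 0.19 on the log2 scale. Of 23 JAK-STAT genes tested, 6 were called lower and none higher, with 4 higher at an unadjusted p under 0.05. Beside the receptor chains these were BCL3, the kinases PIM1 and PIM2 and the receptor IL10RA. PIM2, the most abundant of them, went from 602 and 623 RPKM to 417 and 388 RPKM (-0.61), close to the 1.5-fold limit, and its call was lost without DMSO replicate 2, without SGC-CBP30 replicate 2, after quantile normalization and with all 4 DMSO libraries as controls, although its adjusted p stayed at or below 0.00201 under every alternative. PIM1 and IL10RA also lost their calls with all 4 DMSO libraries, which left 3 of the list called. The list's median was 0.01 and became negative under both other scalings and with all 4 DMSO libraries as controls.

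HLA class II molecules present peptides to helper T cells and depend on the transactivator CIITA. The class II genes and their regulators had a median of -0.75, with 10 of 16 called lower, none called higher and 1 higher at an unadjusted p under 0.05. CIITA (chr16:10971055-11026079, hg19) was at 53.3 and 52.2 RPKM in DMSO and at 13.9 and 13.0 RPKM with SGC-CBP30, a log2 fold change of -1.96 (SE 0.084, adjusted p = 4.85e-07). Among the class II chains, HLA-DPB1 went from 158 and 164 RPKM to 91.4 and 84.9 RPKM (-0.87), and among the genes of peptide loading HLA-DMB went from 40.5 and 39.4 RPKM to 19.6 and 20.2 RPKM (-1.0). Values of single class II genes are uncertain because near-identical genes and alleles share reads. These genes were also lower in the DMSO pair of the CPI203 experiment, by a median of 1.04 on the log2 scale. HLA-DPB1 had a mean of 60.4 RPKM there, under its level with SGC-CBP30, and CIITA one of 15.8 RPKM. Only CIITA of the 10 genes called lower was below both of those libraries, and only 1 gene of the list was called lower with all 4 DMSO libraries as controls, when the median was -0.19.

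Of 19 interferon-stimulated genes tested, 5 were called lower and none higher, 12 were lower at an adjusted p under 0.05 and 1 was higher at an unadjusted p under 0.05, with a median of -0.43. XAF1, an interferon-induced antagonist of inhibitors of apoptosis, was at 4.86 and 5.09 RPKM in DMSO and at 0.807 and 0.894 RPKM with SGC-CBP30, a log2 fold change of -2.42 (SE 0.199). PARP14, an ADP-ribosyltransferase, went from 8.21 and 7.57 RPKM to 3.51 and 3.57 RPKM (-1.13), and OAS1, a sensor of double-stranded RNA, from 4.01 and 4.69 RPKM to 2.43 and 2.15 RPKM (-0.89). TAP1 and PSMB9, which serve class I antigen presentation, had log2 fold changes of -0.63 and -0.62. XAF1 and OAS1 stayed called with all 4 DMSO libraries as controls, and PARP14, TAP1 and PSMB9 lost the call. PARP14 was at 3.58 and 3.60 RPKM in the other DMSO pair, about its level with the compound. XAF1 was at 1.38 and 1.81 RPKM there, above both SGC-CBP30 libraries.

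Interferon regulatory factors bind repeats of GAA. The interferon-stimulated response element GAANNGAAA stands, on either strand, in 7.66% of all RefSeq promoter windows of 250 bases before and 50 after the start. The stretches of OAS1 (chr12:112906919-112906961, plus strand) and PARP14 (chr3:122680779-122680838, plus strand), in GRCh38.p14, are shown because in both the element overlaps the composite element of ETS factors and IRF4 (GGAANNGAA, in 7.79% of all windows). Capitals mark the joined elements.
OAS1: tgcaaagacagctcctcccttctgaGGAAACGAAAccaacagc
PARP14: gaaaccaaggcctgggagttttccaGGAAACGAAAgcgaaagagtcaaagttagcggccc
The same 10 letters stand 18 bases before the start of OAS1 and 35 bases before that of PARP14, counted to their first base. The genes were chosen after their values were seen and because they hold the element, and binding of a factor at these sites was not measured here.

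NF-kappaB, a factor of inflammatory and survival genes, had targets on both sides. Of 22 genes tested, 3 were called lower and 3 higher, and at an adjusted p under 0.05 alone 11 fell and 5 rose, with a median of -0.24. TNFAIP3, which encodes the feedback inhibitor A20, was at 53.8 and 55.4 RPKM in DMSO and at 26 and 25 RPKM with SGC-CBP30 (-1.10). BIRC3, an inhibitor of apoptosis, fell by 0.83 on the log2 scale, and the subunit REL by 0.71, a call that was lost without DMSO replicate 1 (-0.54). NFKBIA, the inhibitor of the pathway, had a log2 fold change of 0.60 and lost its call after median scaling, after quantile normalization and in 4 other alternatives. The largest rise of any protein-coding gene was that of TNFRSF12A (chr16:3068446-3072384, hg19), the receptor for the cytokine TWEAK. It was at 0.231 and 0.455 RPKM in DMSO, near the lower limit of detection, and at 3.20 and 2.41 RPKM with the compound. The log2 fold change was 2.74 (SE 0.259, adjusted p = 5.85e-05 from limma). This gene passed the limit of 1 RPKM only through the SGC-CBP30 libraries.

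Immediate-early genes, which respond to signals without new protein synthesis, had 6 calls of lower and 1 of higher expression among 23 tested, with a median of -0.28. FOS, a subunit of AP-1, was at 2.55 and 1.82 RPKM in DMSO and at 0.664 and 0.648 RPKM with SGC-CBP30 (-1.58, adjusted p = 0.000792). In the other DMSO pair it was at 0.328 RPKM, below the SGC-CBP30 libraries, and the call was lost with all 4 DMSO libraries as controls (adjusted p = 0.154). IER2 went from 9.53 and 9.59 RPKM to 4.90 and 4.44 RPKM (-1.02), and DUSP4, a phosphatase that limits MAP kinases, fell by 1.07. With all 4 DMSO libraries 2 members were called lower and the median was -0.08. ATF3, a stress-induced factor, rose from 2.87 and 3.18 RPKM to 6.35 and 5.98 RPKM (1.01).

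Glycolysis and glucose uptake made up 1 of the lists with a positive median. Of 22 genes tested, 6 were called higher and none lower, and 13 rose and 3 fell at an adjusted p under 0.05, with 3 lower at an unadjusted p under 0.05 as well. The median was 0.25. The glucose transporter SLC2A1 was at 8.01 and 8.44 RPKM in DMSO and at 18.5 and 16.2 RPKM with SGC-CBP30, a log2 fold change of 1.07 (SE 0.080). PFKFB3 and PFKFB4, which set the level of an activator of phosphofructokinase, went from 8.16 and 8.30 RPKM to 14.3 and 15.1 RPKM (0.83) and from 1.24 and 1.58 RPKM to 4.46 and 4.90 RPKM (1.67). HK1, ENO2 and ALDOC, enzymes of the pathway itself, had log2 fold changes of 0.77, 0.67 and 0.60. ENO2 lost its call with a pseudocount of 1 and after quantile normalization, and ALDOC after median scaling and without DMSO replicate 1. The abundant enzymes moved less. LDHA was at 518 and 529 RPKM in DMSO and at 616 and 630 RPKM with the compound (0.25), and PGK1 at 354 and 370 RPKM and at 483 and 480 RPKM (0.41). All 6 genes called higher were also above both libraries of the other DMSO pair, as were 383 of all 482 genes called higher. With all 4 DMSO libraries as controls 6 members were called higher.

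Hypoxia genes outside glycolysis, most of them known targets of hypoxia-inducible factors, gave 6 calls of higher and 4 of lower expression among 24 tested, with a median of 0.13. BNIP3 (chr10:133781578-133795435, hg19), a mitophagy receptor, was at 9.17 and 9.82 RPKM in DMSO and at 35.4 and 36.3 RPKM with SGC-CBP30, a log2 fold change of 1.91 (SE 0.057, adjusted p = 1.08e-07). The prolyl hydroxylase of collagen P4HA1 went from 19.2 and 20.2 RPKM to 36.2 and 37.3 RPKM (0.90), the histone demethylase KDM3A from 19.3 and 20.5 RPKM to 35 and 35.9 RPKM (0.83), and EGLN1, the oxygen sensor that marks hypoxia-inducible factors for destruction, from 4.55 and 5.25 RPKM to 8.98 and 8.93 RPKM (0.86). NDRG1, which is also induced by hypoxia, was lower, at 46 and 44.3 RPKM in DMSO and at 23.9 and 25.6 RPKM with the compound (-0.87), and RORA had a log2 fold change of -0.73. The list therefore did not move in 1 direction. In the other DMSO pair P4HA1 was at 32.7 and 33.2 RPKM, near its level with the compound, and EGLN1 at 7.55 and 7.03 RPKM. With all 4 DMSO libraries as controls P4HA1, EGLN1 and NDRG1 lost their calls, while BNIP3 and KDM3A kept theirs. Under that setting 3 members were called higher and 2 lower.

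The core of the hypoxia response element, ACGTGC on either strand, stands in 6.89% of all windows. Stretches of 3 genes called higher in these lists are shown, chosen after their values were seen and because they hold the core, from GRCh38.p14 and the minus strand: ALDOC (chr17:28577105-28577145), BNIP3 (chr10:131982026-131982083) and EGLN1 (chr1:231422288-231422325). Capitals mark the core in either orientation, and in ALDOC and BNIP3 it overlaps the E-box CACGTG, found in 7.26% of all windows.
ALDOC: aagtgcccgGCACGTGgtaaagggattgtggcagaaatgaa
BNIP3: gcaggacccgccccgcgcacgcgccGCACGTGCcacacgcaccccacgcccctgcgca
EGLN1: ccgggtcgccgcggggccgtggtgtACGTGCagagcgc
The core of BNIP3 is present in both orientations around 1 E-box. The call of EGLN1 was lost with all 4 DMSO libraries as controls. Which factor, if any, occupied these letters was not measured here.

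Genes of sterol synthesis and uptake had a median of -0.19, with 6 of 24 called lower, none called higher and 17 lower at an adjusted p under 0.05, and 2 higher at an unadjusted p under 0.05. INSIG1, the sterol-regulated brake on the pathway, was at 277 and 298 RPKM in DMSO and at 144 and 142 RPKM with SGC-CBP30, a log2 fold change of -1.0 (SE 0.040). FDFT1, which encodes squalene synthase, went from 328 and 344 RPKM to 215 and 216 RPKM (-0.64), and MSMO1, a sterol oxidase, from 79.3 and 84.7 RPKM to 47.1 and 44.5 RPKM (-0.84). PMVK and MVK, kinases of the mevalonate pathway, had log2 fold changes of -0.65 and -0.62, and the call of MVK was lost without DMSO replicate 2 or SGC-CBP30 replicate 2. This group also differed between the DMSO pairs, by a median of -0.47 on the log2 scale, and INSIG1 had a mean of 124 RPKM in the other pair, under its level with the compound. With all 4 DMSO libraries as controls 2 members were called lower and the median of the list was 0.03. In fatty acid synthesis, 1 of 17 genes was called, the master regulator SREBF1 at -0.60, and this call was lost after quantile normalization, without DMSO replicate 2 and with all 4 DMSO libraries as controls.

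Cell cycle genes were examined by the phase they serve. Of 20 G1 cyclins and CDK inhibitors tested, 4 were called lower and none higher, with 4 higher at an unadjusted p under 0.05 and a median of -0.11. CCND2, the D-type cyclin of these cells, was at 101 and 108 RPKM in DMSO and at 56.5 and 50.3 RPKM with SGC-CBP30 (-0.97), and CDKN2B, an inhibitor of the kinases that D-type cyclins activate, went from 22.2 and 23.4 RPKM to 9.41 and 8.61 RPKM (-1.33). CCNE1 and E2F2, which act at the entry to S phase, had log2 fold changes of -0.70 and -0.66, and both lost the call with all 4 DMSO libraries as controls. Mitotic genes had a median of 0.28, and 25 of 34 were higher at an adjusted p under 0.05, although 2 were called higher and 2 lower at 1.5-fold. TTK, a spindle checkpoint kinase, was at 12.3 and 12.2 RPKM in DMSO and at 17.9 and 19.1 RPKM with the compound (0.59), just past the limit, while the checkpoint kinase BUB1 went from 121 and 118 RPKM to 72.5 and 75.1 RPKM (-0.69). The call of TTK was lost in 6 alternatives and that of BUB1 with all 4 DMSO libraries, under which 1 mitotic gene was called higher and none lower, while 2 were called lower under each of the other fits. Among 33 DNA replication genes none was called in limma, while 16 rose and 2 fell at an adjusted p under 0.05 and 19 and 2 at an unadjusted p under 0.05, with a median of 0.12.

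MYC, the growth regulator that is often activated in myeloma, was at 281 and 296 RPKM in DMSO and at 217 and 193 RPKM with SGC-CBP30. Both treated libraries were below both controls, but the log2 fold change of -0.49 (SE 0.052, adjusted p = 0.000119) lay under the limit of 1.5-fold, 0.585 on this scale. None of the 40 growth genes of its list was called, while 12 fell and 6 rose at an adjusted p under 0.05. At an unadjusted p under 0.05 in limma 15 fell and 9 rose. The median was -0.06, which turned positive after quantile normalization and with all 4 DMSO libraries as controls. None of 60 cytosolic ribosomal protein genes was called either, and 26 fell and 2 rose at an adjusted p under 0.05 (33 and 4 unadjusted), with a median of -0.08 that was also positive after quantile normalization.

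The lists of survival, protein folding, amino acid response and histone acetylation genes had 0% to 6.45% of members called, beside 7.14% of all genes tested. These lists are small, and the difference from that share was not tested. None of 13 BCL2 family genes was called (1 was called lower after median scaling and after quantile normalization), 6 fell and 2 rose at an adjusted p under 0.05, with the same counts at an unadjusted p, and the median was -0.06. BCL2, the founding inhibitor of apoptosis, went from 27.2 and 25.7 RPKM to 18.6 and 17.9 RPKM (-0.53), and MCL1, on which plasma cells depend, was between 154 and 158 RPKM in all 4 libraries. Of 36 genes of folding and degradation in the endoplasmic reticulum 1 was called, DERL3 at -0.61, and its call was lost without DMSO replicate 2 and with all 4 DMSO libraries as controls. Of 31 genes of the amino acid response, CHAC1 and SLC1A4 were called, at -1.13 and -0.66, and both lost the call with all 4 DMSO libraries. Of 33 acetyltransferase, deacetylase and BET genes 1 was called, the deacetylase HDAC4 at -0.66, which lost the call without any 1 of the 4 libraries.

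Replication-dependent histone genes, whose transcripts normally lack a poly(A) tail, had 6 of 24 called higher, none lower at an adjusted or an unadjusted p under 0.05, and a median of 0.27. HIST1H2BC was at 9.59 and 8.63 RPKM in DMSO and at 20.1 and 21.4 RPKM with SGC-CBP30 (1.18), and HIST1H2BJ at 24.9 and 27.3 RPKM and at 49.4 and 52.0 RPKM (0.96). HIST1H2AC rose by 0.92. The remaining 3 calls, HIST1H1E, HIST1H3G and HIST1H2BO, were each lost under median scaling, with a pseudocount of 1 or without 1 library, and reads of near-identical histone copies make values of single genes uncertain.

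**Figure D3:**
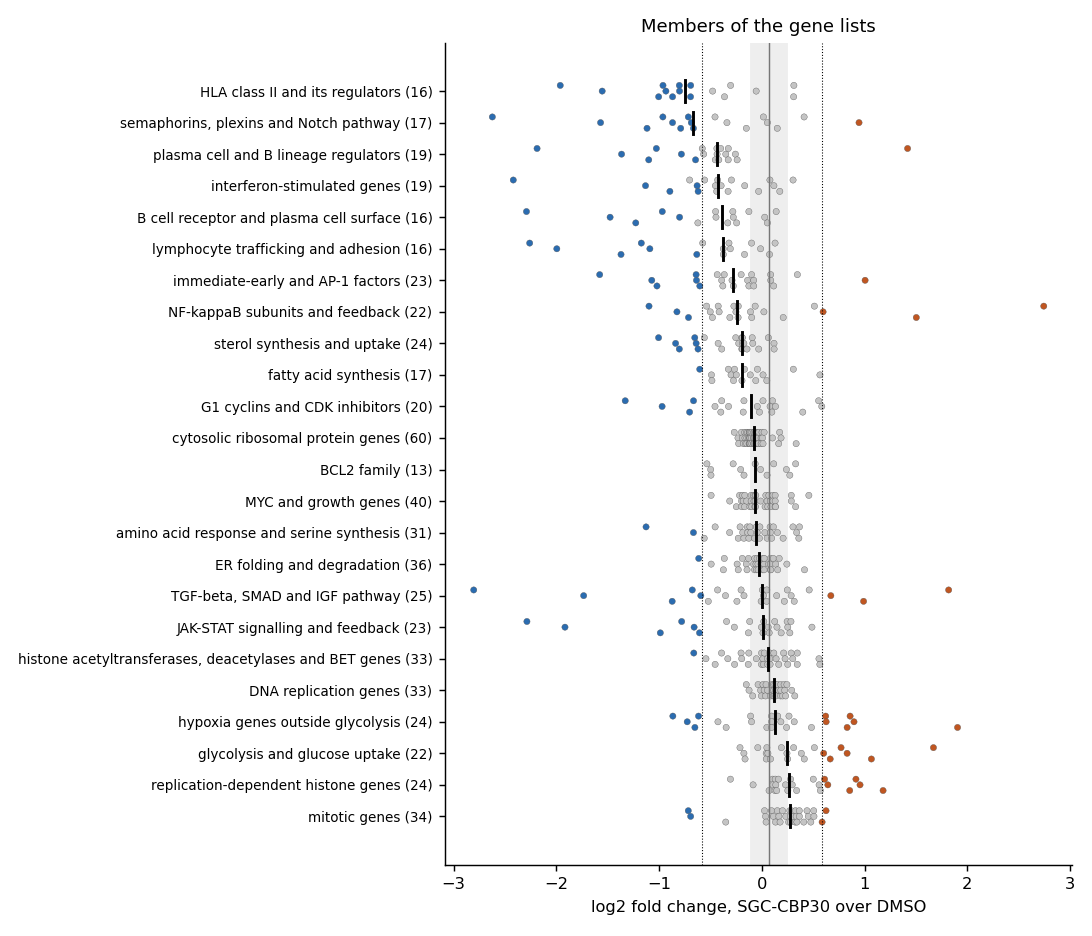
Log2 fold change with SGC-CBP30 of every tested member of the 24 lists (number tested in brackets), ordered by median; black bars are medians, blue and orange points are genes called lower and higher, the grey band and line are the quartiles and median of all genes tested, and dotted lines mark 1.5-fold. HLA class II genes lie lowest at a median of -0.75 and mitotic genes at 0.28, beside 0.27 for histone genes.

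Several of the largest changes were outside these groups. C10orf10, also known as DEPP, went from 25 and 26.7 RPKM in DMSO to 5.34 and 5.43 RPKM with SGC-CBP30 (-2.24), and NEURL, a ubiquitin ligase that acts on Notch ligands, from 14.5 and 15.9 RPKM to 3.47 and 2.74 RPKM (-2.26). The protease BACE2, the exchange factor DENND3 and the chaperone gene DNAJC5B had log2 fold changes of -2.43, -2.48 and -2.25 from DMSO levels of 2.46 to 8.35 RPKM. BACE2 and DENND3 passed the limit of 1 RPKM only through their own DMSO libraries. In the other DMSO pair they had means of 0.336 and 0.457 RPKM, under their means of 0.409 and 0.595 RPKM with SGC-CBP30. NEURL, DNAJC5B and C10orf10 had means of 3.70, 2.97 and 11.2 RPKM there, above their means with the compound. On the other side HMOX1, which encodes heme oxygenase, was at 32.0 and 28.9 RPKM in DMSO and at 107 and 97.6 RPKM with the compound, a log2 fold change of 1.75 (SE 0.070, adjusted p = 3.51e-07). SQSTM1, the autophagy adaptor p62, had the largest rise in RPKM, from 208 and 203 RPKM to 324 and 309 RPKM (0.62), and fell under 1.5-fold after median scaling. CRIP2, SERPINB8, MAPK12, BAIAP3, TMEM47, SAPCD2 and ELOVL4 rose by 1.5 to 2.25 on the log2 scale from DMSO levels between 0.308 and 1.13 RPKM. Their DMSO means were all under 1 RPKM, so they passed the limit of 1 RPKM only through the SGC-CBP30 libraries. Their place among the largest rises depends on that. In the other DMSO pair TMEM47 had a mean of 1.95 RPKM, above its mean of 1.70 RPKM with SGC-CBP30. MAPK12 averaged 1.90 RPKM there against 2.08 RPKM with the compound. The rest were below their means with the compound as well. An entry with the symbol PIK3R2 (chr19:18263968-18288927, hg19) was at 0.438 and 0.0957 RPKM in DMSO and at 2.54 and 1.35 RPKM with SGC-CBP30 (2.59). In the other DMSO pair it was at 3.40 and 3.30 RPKM, above both treated libraries. It lost its call with all 4 DMSO libraries as controls, and it too passed the limit of 1 RPKM only through the SGC-CBP30 libraries. Whether this entry is the PIK3R2 gene itself was not checked.

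CPI203 was compared to ask which of these changes belonged to inhibition of another bromodomain family. Each compound was set against its own DMSO pair, and the difference between the changes was tested gene by gene. That difference reached an adjusted p under 0.05 in 646 of the 1046 genes called with SGC-CBP30 (61.8%), beside 50.5% of all genes tested. It did so in 379 of those called lower and 267 of those called higher. The genes were called on the SGC-CBP30 change that is part of this difference, so some excess over all genes is built in. Of the 564 genes called lower with SGC-CBP30, 245 were also called lower with CPI203 and 39 were called higher. Of the 482 called higher, 204 were also called higher and 38 were called lower. CPI203 called 2178 of the same 14642 genes lower and 1866 higher.

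The members of the lists fell on both sides of this test. CXCL10, POU2AF1, CCND2, PIM2 and XAF1 fell with both compounds, and no difference between the responses was detected, with values between -0.48 and 0.16 on the log2 scale and adjusted p-values for the difference of 0.0686 to 0.926. IRF4 fell more with SGC-CBP30, by -1.36 against -0.17 with CPI203, a difference of -1.19 (adjusted p = 4.2e-07). The receptor chains of interleukin-6 also fell more with SGC-CBP30, IL6R by a difference of -0.59 and IL6ST by -0.93. MYC fell more with CPI203, by a difference of 2.47, and so did CCR1 (2.54), CD28 (2.23), TNFRSF13B (1.66) and ICAM1 (1.13).

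Some genes that fell with SGC-CBP30 rose with CPI203. CD44 was called in both, at -1.09 with SGC-CBP30 and 0.92 with CPI203, where it went from 29.9 to 56.5 RPKM on average, a difference of -2.01 (adjusted p = 5.8e-07). MAF was at -1.03 and 0.59, ZFP36, which encodes a protein that destabilizes inflammatory mRNA, at -0.64 and 1.72, CDC25B, a phosphatase that activates mitotic kinases, at -0.71 and 0.78, and FOS at -1.58 and 1.91. The DMSO means of the SGC-CBP30 and CPI203 experiments differed, at 43.3 and 30.2 RPKM for MAF and 2.19 and 0.328 RPKM for FOS. With CPI203 MAF averaged 45.5 RPKM and FOS 1.51 RPKM, near and under the DMSO means of the SGC-CBP30 experiment. CD44, ZFP36 and CDC25B with CPI203 were above both DMSO pairs. KLF2 fell by 2.19 with SGC-CBP30 and was at 0.44 with CPI203, under 1.5-fold. Among genes that rose with SGC-CBP30, BNIP3, PFKFB4, PFKFB3 and SLC2A1 had log2 fold changes between -0.09 and 0.09 with CPI203, and the differences of 0.91 to 1.88 had adjusted p-values of 0.000693 or less. Of the 6 glycolysis genes called higher the response differed in all 6, but HK1 and ENO2 rose more with CPI203, at 1.74 and 1.26. Histone genes rose more with CPI203 too, HIST1H2BC by 3.48. TNFRSF12A rose by 2.74 and 2.69, a difference of 0.05 (SE 0.367, adjusted p = 0.92).

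**Figure D4:**
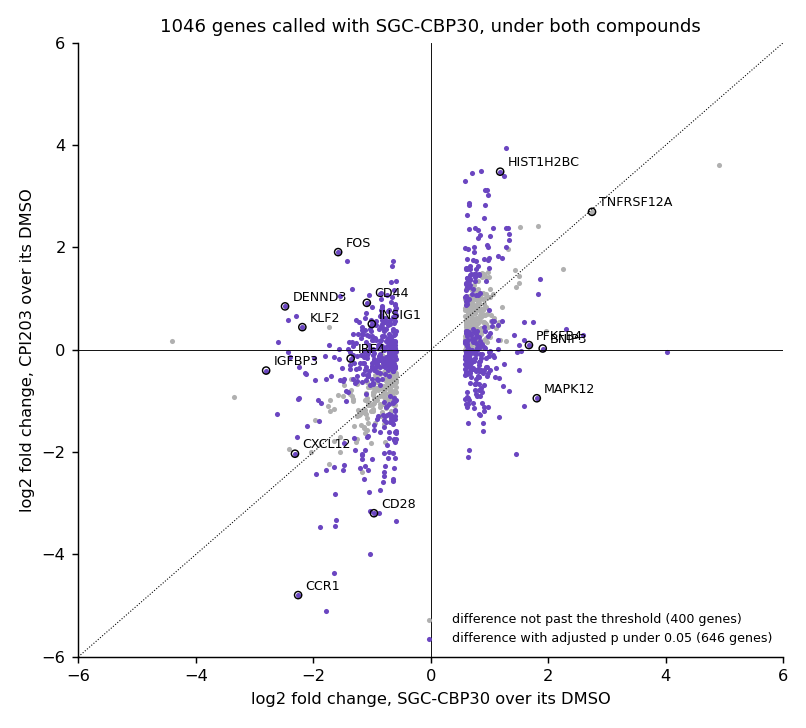
Log2 fold change with SGC-CBP30 (horizontal) and with CPI203 (vertical), each over its own DMSO, for the 1046 genes called with SGC-CBP30; the dotted line marks equal change, and the 646 genes whose difference has an adjusted p under 0.05 are purple. IRF4, KLF2, BNIP3 and PFKFB4 lie near the horizontal axis, while CXCL12 and TNFRSF12A lie near the line of equal change.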

How the data were processed

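RNA of LP-1 cells in 4 groups of 2 libraries was sequenced for the authors, who deposited RPKM values per gene and library. The submitters' processing notes name TopHat 1.4.1, Cufflinks and hg19, without roles. The deposited table holds 24 columns of other libraries, which were not used. DMSO libraries were matched to a compound by the naming series in the labels, and the replicates are described as biological.

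Of 63129 genes, 27 lacked a value and were dropped, and log2(RPKM + 0.1) of the 14642 genes that averaged 1 RPKM or more in the SGC-CBP30 experiment was fitted with limma 3.58.1 in R 4.3.3 (4 group means over 8 libraries, eBayes with intensity trend, 4 residual and 5.52 prior degrees of freedom), with Benjamini-Hochberg adjustment over all genes tested. On simulated data for this comparison (14642 genes), 90% of 200 changed genes and 3 unchanged genes were called. Depth was estimated from single-read steps of RPKM values under 0.5. Between 60.3% and 72.6% of those values were whole reads within 0.1, so depths are approximate and no count test was run.

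Members and lists were chosen with earlier results of these data known, so lists are described by counts and medians and not tested. Genes named are IRF4, MYC, CREBBP, EP300 and GAPDH, the 14 largest falls and 14 largest rises among called protein-coding genes, the 6 largest of each in RPKM, and up to 6 called members of each list; other genes named (BCL2, CXCR4, ITGB7, JAK1, LDHA, MCL1, PGK1, PRDM1, STAT3 and XBP1) and those of the closing section were picked after their values were seen. A few genes that the rule names are left out of the text. GENCODE release 29 gave gene types (91.0% of identifiers matched), and promoter windows came from RefSeq (GRCh38.p14). Since 63.3% of tested genes had a window, motif shares among called genes are not given. Alternatives were other scalings, pseudocounts, filters, thresholds and controls, a replicate block, and each library left out. Python 3.11.15, pandas 2.3.3, numpy 2.4.6 and matplotlib 3.10.9 made the tables and figures.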

Additional observations from a re-analysis of the deposited data

Results flagged for a closer look

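Called changes of opposite direction under the compounds, with a tested difference between them, were found for 2 of the genes with the largest changes. DENND3 was at 3.54 and 4.03 RPKM in DMSO and at 0.594 and 0.595 RPKM with SGC-CBP30 (log2 fold change -2.48), while with CPI203 it went from a mean of 0.457 to 0.854 RPKM (0.85), a difference of -3.33 (adjusted p = 0.00019 from limma). MAPK12 was at 0.633 and 0.429 RPKM in DMSO and at 2.15 and 2.00 RPKM with SGC-CBP30 (1.80), while with CPI203 it went from 1.90 to 0.938 RPKM (-0.95), a difference of 2.75 (adjusted p = 8.13e-05 from limma). In both genes the DMSO pairs differed by more than the SGC-CBP30 libraries differed from the other DMSO pair.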

How the results depend on the processing

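The main counts were 482 genes higher, 564 lower and 646 with a differing response to CPI203. Requiring a mean of at least 5 RPKM gave 168, 332 and 377, at least 2-fold gave 72, 197 and 188, and no minimum fold gave 3743 higher and 2178 lower. Median scaling gave 317 higher and a pseudocount of 1 gave 231. With 1 library left out in turn, the counts were 387 to 497 higher, 506 to 569 lower and 529 to 617 differing. The replicate numbers correlated at -0.222 in this experiment and -0.067 in the other and are not a pairing of the samples by the labels. The paper describes its DMSO controls as paired with the treated replicates, without naming the pairs. With the replicate block the counts were 478, 557 and 624. With crossed numbers, chosen after seeing the data, they were 488 higher and 562 lower. CREBBP changed sign to -0.020 after median scaling and ran from -0.015 to 0.13 with 1 library left out, lowest without DMSO replicate 2, and GAPDH changed sign to -0.033 after median scaling; neither was called. Of 1515 alternative values of the named genes, 1410 kept direction and call, 102 lost the call, and 3 changed sign. List medians moved beyond their spread in 95 of 288 alternatives and changed sign in 23, in 9 lists with main medians no larger than 0.193 in size. The causes were not tested.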

Other observations

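The following genes were grouped after their values were seen, so their counts are descriptions. Regulators of G protein signalling and purine receptors, which shape the response of lymphocytes to extracellular cues, held 6 genes called lower and none higher among 14 tested, with 2 higher at an unadjusted p under 0.05 in limma and a median log2 fold change of -0.42. RGS1, which damps chemokine receptor signalling, was at 36.2 and 34.4 RPKM in DMSO and at 9.98 and 8.74 RPKM with SGC-CBP30 (-1.91). The ATP-gated channels P2RX1, P2RX7 and P2RX4 had log2 fold changes of -1.97, -1.08 and -0.65, and the receptor P2RY8 one of -1.17. All 6 genes were also below both DMSO libraries of the CPI203 experiment, as were 426 of all 564 genes called lower. P2RX7 and P2RX4 had log2 fold changes of -0.11 and 0.06 with CPI203, and the difference between the compounds had adjusted p-values of 0.000116 and 7.49e-05.

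Among 20 oxidative stress genes, 4 were called higher and none lower, with 8 higher and 8 lower at an adjusted p under 0.05, the same at an unadjusted p, and a median of 0.12. TXNIP, a thioredoxin inhibitor induced by glucose, rose from 11.7 and 13.4 RPKM to 27.9 and 30.1 RPKM (1.20), and GCLM, a subunit of the first enzyme of glutathione synthesis, from 8.89 and 8.59 RPKM to 15.1 and 15.0 RPKM (0.78). HMOX1 and SQSTM1 were the other calls. Of the 4 chemokine ligands tested, CXCL12 and CXCL10 were lower and CCL3 and CCL5 higher. CCL5 went from 0.665 and 0.820 RPKM to 2.27 and 1.76 RPKM (1.32).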
